A study of Mus musculus with 28 samples.

Results

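Transcripts of 8 genes that mark sympathetic neurons, or peptides that such neurons can release, were followed in mouse jugular veins joined to the carotid artery as an arteriovenous fistula (AVF). They were neuropeptide Y (*Npy*), galanin (*Gal*), vasoactive intestinal peptide (*Vip*), tyrosine hydroxylase (*Th*), dopamine beta-hydroxylase (*Dbh*), stathmin-2 (*Stmn2*), peripherin (*Prph*), and growth-associated protein 43 (*Gap43*). They were picked by symbol, 8 of 56980 genes in the bulk count table and 8 of 32285 in the single-cell matrices, with the values of early AVFs against contralateral veins already known. Their differences from contralateral veins and from early AVFs are therefore given as a description, with no test.

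C57BL/6 mice of both sexes first underwent a 5/6 nephrectomy, and an AVF was then made, with the cut end of the jugular vein sewn onto the carotid artery. Outflow veins were taken as early (day 3), mid (day 10), or late (day 21) AVFs. The contralateral jugular vein, the control, came from animals that carried the same nephrectomy and an AVF on the other side. Bulk RNA sequencing covered 7 contralateral veins (5 female, 2 male), 8 early AVFs (3 female, 5 male), 5 mid AVFs (3 female, 2 male), and 5 late AVFs (3 female, 2 male), with 1 poly(A)-selected library a vessel. The days above are those of the bulk labels, and the single-cell pools were taken at other and somewhat later days, which their labels do not give. Single-cell RNA sequencing covered 3 libraries, a pool of vessels of both sexes for each of the contralateral, early, and late conditions. Which vessels came from 1 animal is not given in the labels.

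Total counts ran from 20254173 to 29913427 in contralateral veins, 23676215 to 67457501 in early, 27021483 to 33395623 in mid, and 27855449 to 36879746 in late AVFs. Levels are given as CPM, the count divided by the library size, scaled by TMM. Of the 8 genes, 7 passed the filter of a mean normalized count of at least 100 that left 12673 genes, and *Vip* (mean 10.9) did not. Several libraries stood apart on these genes. They were early AVF 7, late AVF 16, late AVF 24, and mid AVF 14, each the highest or, for late AVF 24, mostly the second of its group, and early AVFs 5 and 6, in which *Npy* and *Gal* were high without the enzymes. The last pair were the deepest libraries, with 67457501 and 53097813 counts, yet had the fewest genes with a count among early AVFs, 19074 and 17514 against 21522 to 25141 in the other early AVFs. Results that rest on early AVF 7, late AVFs 16 and 24, or mid AVF 14 are mostly given with and without them. No mean of *Npy* or *Gal* was taken without early AVFs 5 and 6 and early AVF 7 together.

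Postganglionic sympathetic neurons have their cell bodies in ganglia beside the spine and in the neck, and only their axons reach the vessel wall. They make noradrenaline from tyrosine through *Th* and *Dbh*, and package *Npy* with it, which constricts vessels through the Y1 receptor. When their axons are cut, such neurons are known to raise *Gal* and *Vip*. *Stmn2* and *Gap43* are proteins of growing axons, and *Prph* is an intermediate filament of peripheral neurons. Some of these genes are also used outside neurons. In the neck the cell bodies lie in ganglia such as the superior cervical ganglion.

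Promoter sequences are shown for the enzymes and the peptides. These genes were all highest of their group in early AVF 7, mid AVF 14, and late AVF 16. *Vip*, *Npy*, and *Gal* also departed from the enzymes in other respects, given below. The 250 bases before the RefSeq start (GRCm38.p6) were available for 6 of the 8 genes, and were searched on both strands for TGACGTC, the core of a cyclic AMP response element, and CAATTAG, a homeodomain motif. The 5 below are written 5′ to 3′ on the gene's strand, with matches in capitals. They come from chr7:142899996-142900245 (−) for *Th*, chr2:27165257-27165506 (+) for *Dbh*, chr10:5638968-5639217 (+) for *Vip*, chr6:49822460-49822709 (+) for *Npy*, and chr19:3414545-3414794 (−) for *Gal*.
*Th*: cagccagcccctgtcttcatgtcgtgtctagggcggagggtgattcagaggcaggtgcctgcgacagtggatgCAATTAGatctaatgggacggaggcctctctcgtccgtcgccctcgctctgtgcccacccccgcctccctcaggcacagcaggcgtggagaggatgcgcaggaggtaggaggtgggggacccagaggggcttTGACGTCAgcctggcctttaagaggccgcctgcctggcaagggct
*Dbh*: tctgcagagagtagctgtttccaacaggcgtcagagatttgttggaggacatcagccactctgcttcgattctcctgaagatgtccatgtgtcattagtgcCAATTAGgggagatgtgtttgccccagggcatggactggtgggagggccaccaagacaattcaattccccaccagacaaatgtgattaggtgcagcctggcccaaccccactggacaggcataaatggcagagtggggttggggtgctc
*Vip*: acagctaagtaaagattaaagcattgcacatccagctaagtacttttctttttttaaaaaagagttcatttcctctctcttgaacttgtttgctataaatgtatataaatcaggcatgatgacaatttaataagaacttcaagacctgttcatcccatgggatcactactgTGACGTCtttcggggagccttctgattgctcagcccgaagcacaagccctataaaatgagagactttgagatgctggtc
*Npy*: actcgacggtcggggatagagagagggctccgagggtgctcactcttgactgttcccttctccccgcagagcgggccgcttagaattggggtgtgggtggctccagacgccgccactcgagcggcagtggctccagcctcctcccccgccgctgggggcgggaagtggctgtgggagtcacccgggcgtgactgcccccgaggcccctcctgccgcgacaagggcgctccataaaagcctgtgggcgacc
*Gal*: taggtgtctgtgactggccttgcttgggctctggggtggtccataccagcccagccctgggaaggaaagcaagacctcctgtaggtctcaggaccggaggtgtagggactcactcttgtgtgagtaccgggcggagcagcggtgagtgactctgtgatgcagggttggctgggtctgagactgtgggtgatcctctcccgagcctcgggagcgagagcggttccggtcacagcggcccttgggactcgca
*Th* and *Vip* held TGACGTC, which 914 of 32851 promoters of this length (2.78%) held. In *Th* the motif was found on both strands, overlapping itself as TGACGTCA, 38 to 45 bases before the start, and in *Vip* it lay 73 to 79 bases before it. CAATTAG was held by *Th*, 171 to 177 bases before the start, and *Dbh*, 143 to 149 bases before it, and by 580 promoters (1.77%). Neither motif was found in the windows of *Npy*, *Gal*, or *Prph*, which says nothing of elements elsewhere. The genes themselves lay apart (GRCm38), among them *Npy* at chr6:49822710-49829507, *Gal* at chr19:3409915-3414544, *Dbh* at chr2:27165233-27183200, and *Th* at chr7:142892752-142931128, so that the windows of *Dbh* and *Th* fell inside the span annotated for those genes.

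*Npy*, a vasoconstrictor peptide of sympathetic neurons, had no count in any of the 7 contralateral veins. In early AVFs 1 to 7 and 10 it was at 2.61, 3.74, 9.61, 3.36, 26.1, 56.3, 375, and 1.91 CPM. All 8 thus lay above all contralateral veins, as they did for 565 of the 12673 genes tested (4.46%), and early AVF 7 alone held 78.3% of the summed level of the group. Mid AVFs were lower, at 1.38, 0.899, 0.850, 7.11, and 0.855 CPM (AVFs 9 and 12 to 15). Late AVFs were at 44.9, 2.02, 1.35, 0.378, and 21.8 CPM (AVFs 16, 17, 19, 23, and 24). *Npy* was therefore present in every AVF of every time point. Against a floor of 3 counts over the 7 contralateral veins, the mean of early AVFs was at least 3402-fold higher, or at least 842-fold without early AVF 7. For mid AVFs it was at least 126-fold (56.7 without mid AVF 14), and for late AVFs at least 801-fold (71.0 without late AVFs 16 and 24). In bulk tissue, fewer cells of a type and less RNA per cell cannot be told apart.

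*Gal* had 2 counts in 1 contralateral vein and none in the other 6. Early AVFs were at 5.37, 8.83, 12.8, 1.96, 46.7, 16.3, 319, and 3.00 CPM, in the order used for *Npy*. Mid AVFs were at 3.00, 2.70, 0.494, 11.3, and 2.21 CPM, and late AVFs at 50.1, 1.07, 2.21, 1.84, and 19.98 CPM. Like *Npy*, *Gal* was higher in every AVF than in all contralateral veins, and highest in early AVF 7, mid AVF 14, and late AVF 16. Its group means were 51.8 ± 109 CPM (SD) over 8 early, 3.93 ± 4.21 over 5 mid, and 15.0 ± 21.2 over 5 late AVFs, against 59.8 ± 129, 2.22 ± 2.74, and 14.1 ± 19.4 for *Npy*. Each of these SDs exceeded its mean. Without early AVF 7 and late AVFs 16 and 24, early AVFs had 13.6 ± 15.5 CPM of *Gal* (n = 7) and 14.8 ± 20.2 of *Npy*. These early means still rested in large part on early AVFs 5 and 6. Early AVF 5 held 49.1% of the summed *Gal* and early AVF 6 held 54.3% of the summed *Npy*. The medians were 8.83 CPM of *Gal* and 3.74 of *Npy*. Late AVFs then had 1.71 ± 0.581 CPM of *Gal* (n = 3) and 1.25 ± 0.824 of *Npy*.

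*Vip*, a vasodilator peptide that sympathetic neurons make after axotomy and that cholinergic sympathetic neurons make at rest, followed another order. It was highest in late AVF 16 with 5.96 CPM (239 counts) and late AVF 24 with 2.31 CPM (80 counts). Early AVF 7, the highest library for the other 7 genes, had only 8 counts, or 0.297 CPM. Mid AVF 14 also had 8 counts. The remaining libraries had 0 to 0.378 CPM. *Vip* therefore separated the late libraries from early AVF 7, which *Npy*, *Gal*, and the enzymes did not.

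**Figure D1:**
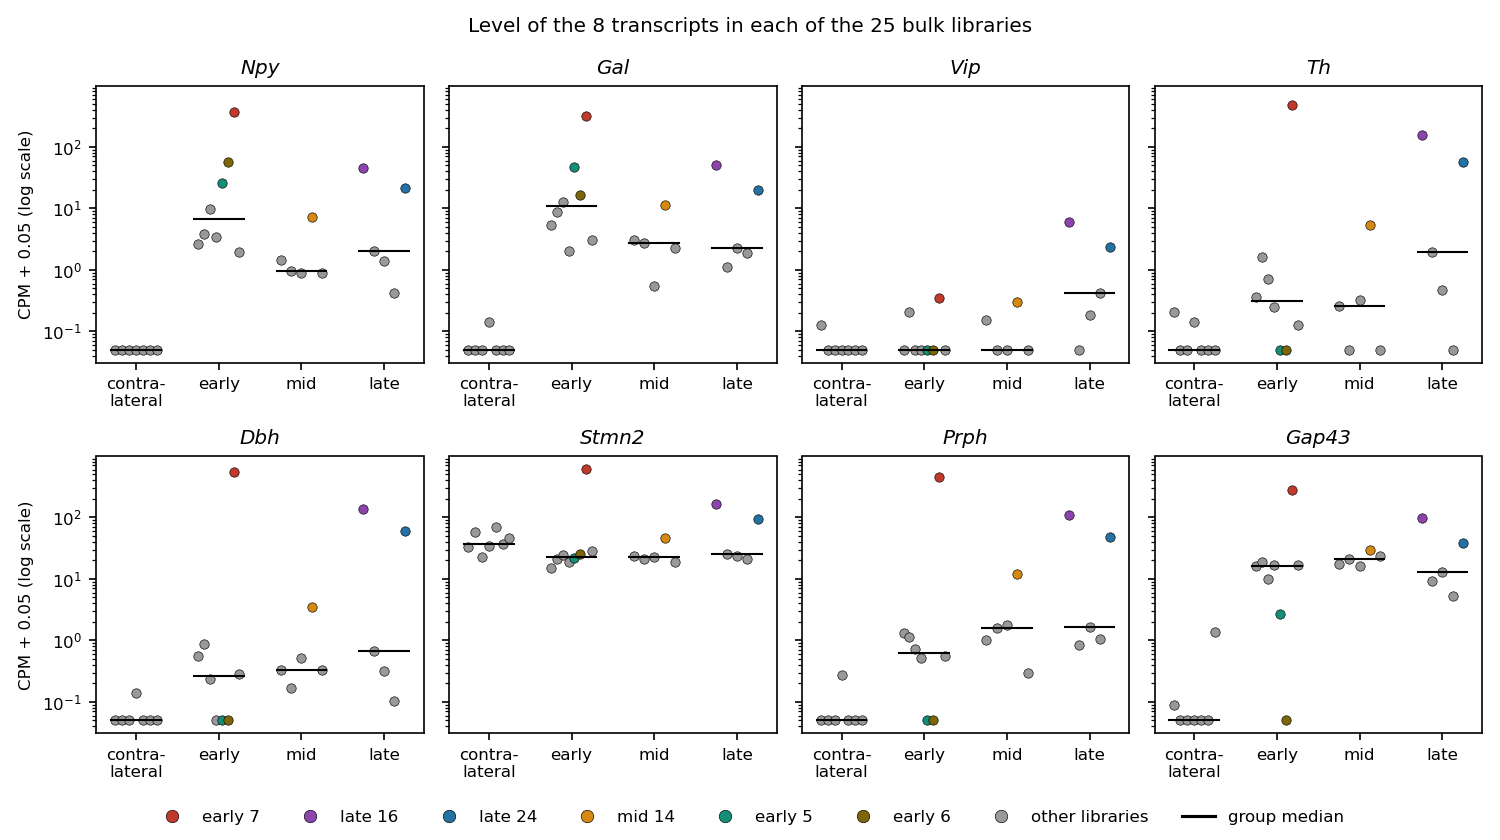
Level of each of the 8 genes in each of the 25 bulk libraries, by group, on a log axis of CPM + 0.05. Each point is a vessel, lines are group medians, and coloured points are the 6 named libraries. Early AVF 7, mid AVF 14, and late AVF 16 were the highest of their group in every panel, with only 8 counts of *Vip* in early AVF 7 and in mid AVF 14.

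*Th*, the rate-limiting enzyme of catecholamine synthesis, was near 0 in most vessels. Early AVF 7 had 471 CPM (12692 counts), late AVF 16 had 153 (6155 counts), and late AVF 24 had 57.8 (2003 counts). Mid AVF 14 followed with 5.25 CPM (169 counts). All remaining AVFs had 0 to 1.92 CPM, and contralateral veins had 4 counts in 1 vein, 2 in another, and none in 5. Early AVF 7 held 99.4% of the summed level of early AVFs, whose median was 0.257 CPM. *Th* overlapped between each time point and contralateral veins, since early AVFs 5 and 6, mid AVFs 12 and 15, and late AVF 23 had no count.

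*Dbh*, which turns dopamine into noradrenaline and is found in few cells but sympathetic neurons and chromaffin cells, had the same order. It had 556 CPM in early AVF 7, 137 in late AVF 16, 59.0 in late AVF 24, and 3.41 in mid AVF 14. The other AVFs had 0 to 0.810 CPM, and a single contralateral vein had 2 counts. Early AVF 7 held 99.7% of the summed *Dbh* of early AVFs. The group mean of 69.8 ± 197 CPM (SD, n = 8) was 0.248 ± 0.308 without it (n = 7), and the late mean of 39.3 ± 60.1 (n = 5) was 0.316 ± 0.292 without AVFs 16 and 24 (n = 3). The levels of both enzymes in early and late AVFs thus rested on 1 and 2 vessels.

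*Prph*, the filament protein, again had its 3 highest values in early AVF 7 (460 CPM), late AVF 16 (109), and late AVF 24 (48.5), followed by mid AVF 14 (11.9). The other AVFs had 0 to 1.73 CPM, with 0 in early AVFs 5 and 6, and the contralateral veins had 5 counts in 1 vein and none in the other 6. *Prph* was low but present in each mid and late AVF, all of which lay above all contralateral veins, as they did for 928 (7.32%) and 792 (6.25%) of the genes tested.

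*Gap43*, a growth-cone protein that Schwann cells and other cells also make, showed both patterns. The 7 contralateral veins had a mean of 0.191 ± 0.489 CPM (SD), with 38 counts in 1 vein, 1 count in another, and none in 5. Early AVFs 1, 2, 3, 4, and 10 had 15.9, 19.1, 9.99, 16.5, and 16.6 CPM, and mid AVFs 17.7, 20.9, 16.2, 29.2, and 23.8. *Gap43* thus stood at a similar level in the AVFs in which *Th*, *Dbh*, and *Prph* were near 0. Early AVFs 5 and 6 were the exceptions, with 2.62 and 0 CPM. Early AVF 7 (282), late AVF 16 (97.2), and late AVF 24 (38.3) were again the 3 highest, while the remaining late AVFs had 9.36, 12.7, and 5.21 CPM.

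*Stmn2*, a microtubule-binding protein of axons, did not share the near absence from contralateral veins. They had 32.9, 58.5, 23.0, 34.3, 70.9, 36.8, and 46.7 CPM, or 43.3 ± 16.6 (SD, n = 7). Early AVF 7 had 611 CPM, and the other 7 early AVFs had 14.8 to 28.7. All but that library thus lay in the lower range of the contralateral veins or below it. The fitted log2 difference of early AVFs from contralateral veins was 1.15 (SE 0.72) with all libraries and −0.97 (SE 0.42) without early AVF 7, so that its sign rested on 1 vessel. Late AVFs 16 and 24 had 162 and 94.5 CPM, above all contralateral veins, and the other late AVFs had 21.3 to 25.5.

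The genes rose together in single libraries. In CPM, in raw counts, and in CPM on unscaled library sizes, early AVF 7 was the highest early AVF, mid AVF 14 the highest mid AVF, and late AVF 16 the highest late AVF for all 8 genes. For *Vip* this rested on only 8 counts in early AVF 7 and 8 in mid AVF 14. Early AVF 7, late AVF 16, and late AVF 24 were, in this order, the 3 highest of all 25 libraries for *Th*, *Dbh*, *Prph*, *Gap43*, and *Stmn2*. They were the 3 highest in any order for 86 of the 12673 genes tested (0.679%). Early AVF 7 was the highest early AVF for 1556 genes (12.3%). Summed over the 8 genes, early AVF 7 held 82791 counts (0.332% of the library), late AVF 16 held 30483 (0.0827%), and late AVF 24 held 11868 (0.0400%), against 0.00230 to 0.0123% in the other 22 libraries. Early AVF 7, mid AVF 14, and late AVF 16 came from female mice and late AVF 24 from a male.

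Among those 3 libraries the genes kept similar proportions for the enzymes and *Prph*. Per count of *Dbh*, *Th* had 0.847, 1.12, and 0.979 counts in early AVF 7, late AVF 16, and late AVF 24, and *Prph* had 0.826, 0.800, and 0.823. The peptides were relatively higher in early AVF 7, with 0.674 counts of *Npy* against 0.328 and 0.370, and 0.574 of *Gal* against 0.367 and 0.339. *Vip* went the other way, with 0.000534 against 0.0436 and 0.0391. Mid AVF 14 had other proportions, with 1.54 counts of *Th*, 3.47 of *Prph*, and 13.3 of *Stmn2* per count of *Dbh*. Per kilobase of exon, early AVF 7 had 663 CPM of *Npy*, 405 of *Gal*, 230 of *Prph*, 207 of *Dbh*, and 199 of *Th*. On the same scale late AVF 16 had 79.3 of *Npy*, 64.9 of *Th*, 63.6 of *Gal*, 54.7 of *Prph*, and 50.8 of *Dbh*, so that the genes lay closer together there. Each of these is a single vessel, and no test was made.

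*Npy* and *Gal* also rose without the enzymes. Early AVF 5 had 1345 counts of *Npy* and 2402 of *Gal*, and early AVF 6 had 2088 and 606, while neither held a count of *Th*, *Dbh*, *Prph*, or *Vip*. For *Npy* the order over all 25 libraries was early AVF 7, early AVF 6, late AVF 16, early AVF 5, and late AVF 24. For *Gal* it was early AVF 7, late AVF 16, early AVF 5, late AVF 24, and early AVF 6. The ratio of *Npy* to *Gal* counts was 0.560 in early AVF 5 and 3.45 in early AVF 6, so that the peptides did not keep a fixed proportion there either. The remaining early AVFs (1, 2, 3, 4, and 10) held 49 to 203 counts of *Npy* and 59 to 271 of *Gal*, with 0 to 21 of *Dbh*. Since early AVF 7 stood apart from the other early AVFs, only the sign of the coefficient of each pair of the 8 is given. It was positive for 28 of 28 pairs with early AVF 7, and for 14 without it.

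**Figure D2:**
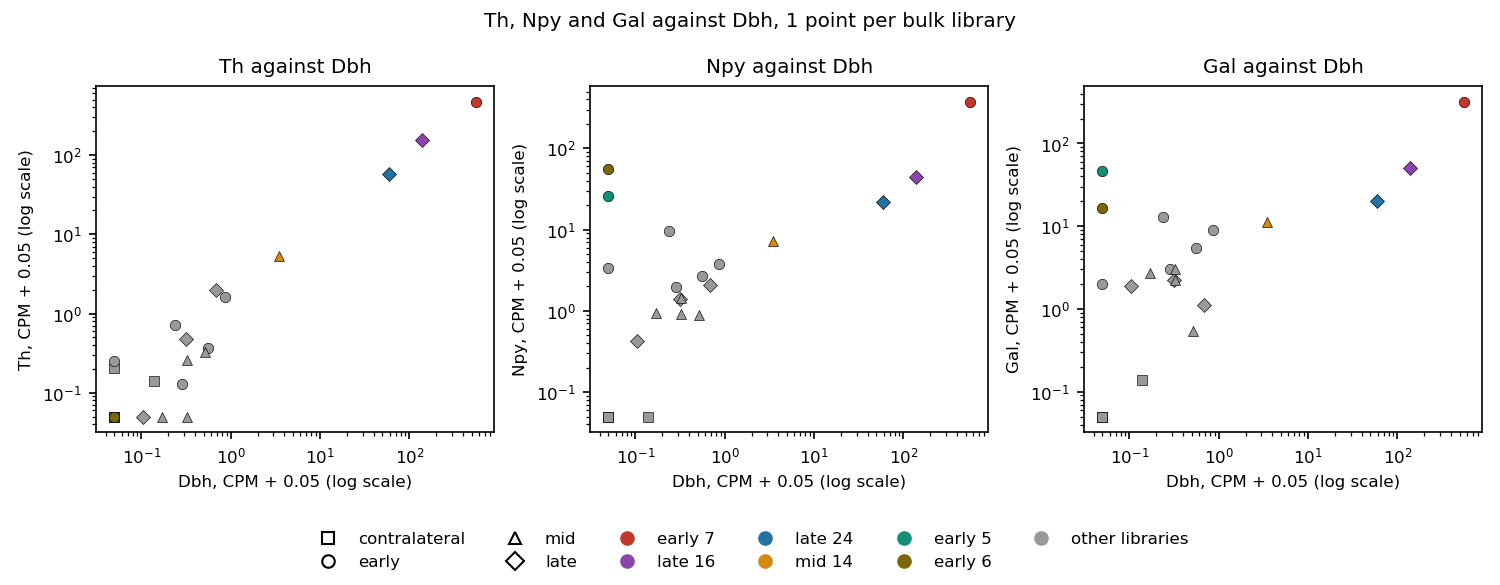
*Th*, *Npy*, and *Gal* against *Dbh* in each of the 25 bulk libraries, both axes in CPM + 0.05 on a log scale. Marker shapes give the group, and colours mark the 6 named libraries, with all others grey. *Th* followed *Dbh* in the 3 libraries at the upper right, while early AVFs 5 and 6 had 26.1 and 56.3 CPM of *Npy* with no count of *Dbh*.

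Other genes of the sympathetic neuron were read from a fixed list of 17, covering the transcription factors, transporters, and receptors that define the type. Against contralateral veins, 782 of 12673 genes were higher in early AVFs (6.17%) and 817 lower (6.45%) by edgeR's quasi-likelihood test (adjusted p under 0.01 and at least 1 on the log2 scale), and genes past both limits are said to be called. Of the 17, 8 were tested and 2 were called higher, the synaptic vesicle transporter *Slc10a4* and *Ddc*, the decarboxylase between *Th* and *Dbh*. None was called at mid or late time points, where 347 (2.74%) and 315 (2.49%) genes were higher and 420 (3.31%) and 361 (2.85%) lower. The genes tested were in part those high enough in early AVF 7 and late AVFs 16 and 24 to pass the filter, so the calls support nothing beyond these vessels. Without early AVF 7 and late AVFs 16 and 24 only 3 of the list passed the filter on low counts and none was called. Of the 17 genes, 11 had the same 3 highest libraries as *Dbh*.

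Values per library showed the same vessels. *Slc6a2*, the noradrenaline transporter, had 349 CPM in early AVF 7, 193 in late AVF 16, and 82.3 in late AVF 24. *Hand1*, a transcription factor of sympathetic neuron development, had 22.9, 5.91, and 2.16 CPM. *Chrna3*, a subunit of the ganglionic nicotinic receptor, had 152, 48.2, and 19.5 CPM. Early AVF 7, late AVF 16, late AVF 24, and mid AVF 14 had a count for 16, 17, 17, and 16 of the 17 genes, whereas early AVFs 5 and 6 had one for 10 and 6. The remaining AVFs also had a count for most of the 17, so that a count alone does not mark these vessels. Summed over the list, the level was 1539, 535, and 269 CPM in the first 3 and 66.4 in mid AVF 14. The level in mid AVF 14 was the highest of the mid AVFs (median 48.2) and near the early median of 64.7. It lay below the highest contralateral vein (96.3 CPM). Early AVFs 5 and 6 had 83.0 and 125 CPM, of which *Gch1* alone made up 55.8 and 105. *Gch1* was at 30.2 CPM in mid AVF 14 and 126 in early AVF 7.

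Genes common to most neurons followed these vessels in part. Of 28 on the list, 23 were tested and 12 were called higher in early AVFs, none lower: *Snap25*, *Syn1*, *Syt1*, *Syt4*, and *Cplx1* of synaptic vesicle release, the RNA-binding protein *Elavl2*, the hydrolase *Uchl1*, the cytoskeletal *Tubb3* and *Nefl*, the granule protein *Chga*, and *Nsg2* and *Gng3*. *Syn1* alone was called higher in mid AVFs, and *Syn1*, *Tubb3*, *Nefl*, and *Syt4* in late AVFs. *Snap25* had 414 CPM in early AVF 7, 90.5 in late AVF 16, and 41.2 in late AVF 24, against 0 in early AVF 5 and 0.35 in early AVF 6. Leaving out the 3 libraries left 9 of the list tested. The rest of the 23 passed the filter only with these vessels included, so their calls support nothing beyond them. *Tubb3* and *Chga* were then called higher in early AVFs, and *Scg3* and *Vamp2* lower. *Chga* did not follow the same vessels, with 4467 CPM in early AVF 1, 3046 in late AVF 19, and 659 in mid AVF 12, where the parathyroid genes were also highest of their group. *Tubb3* had 15.7 to 666 CPM in early AVFs, 11.1 to 43.6 in mid, and 8.07 to 244 in late, all above the highest contralateral vein (6.94 CPM). Of the 28 genes, 18 had the same 3 highest libraries as *Dbh*.

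**Figure D3:**
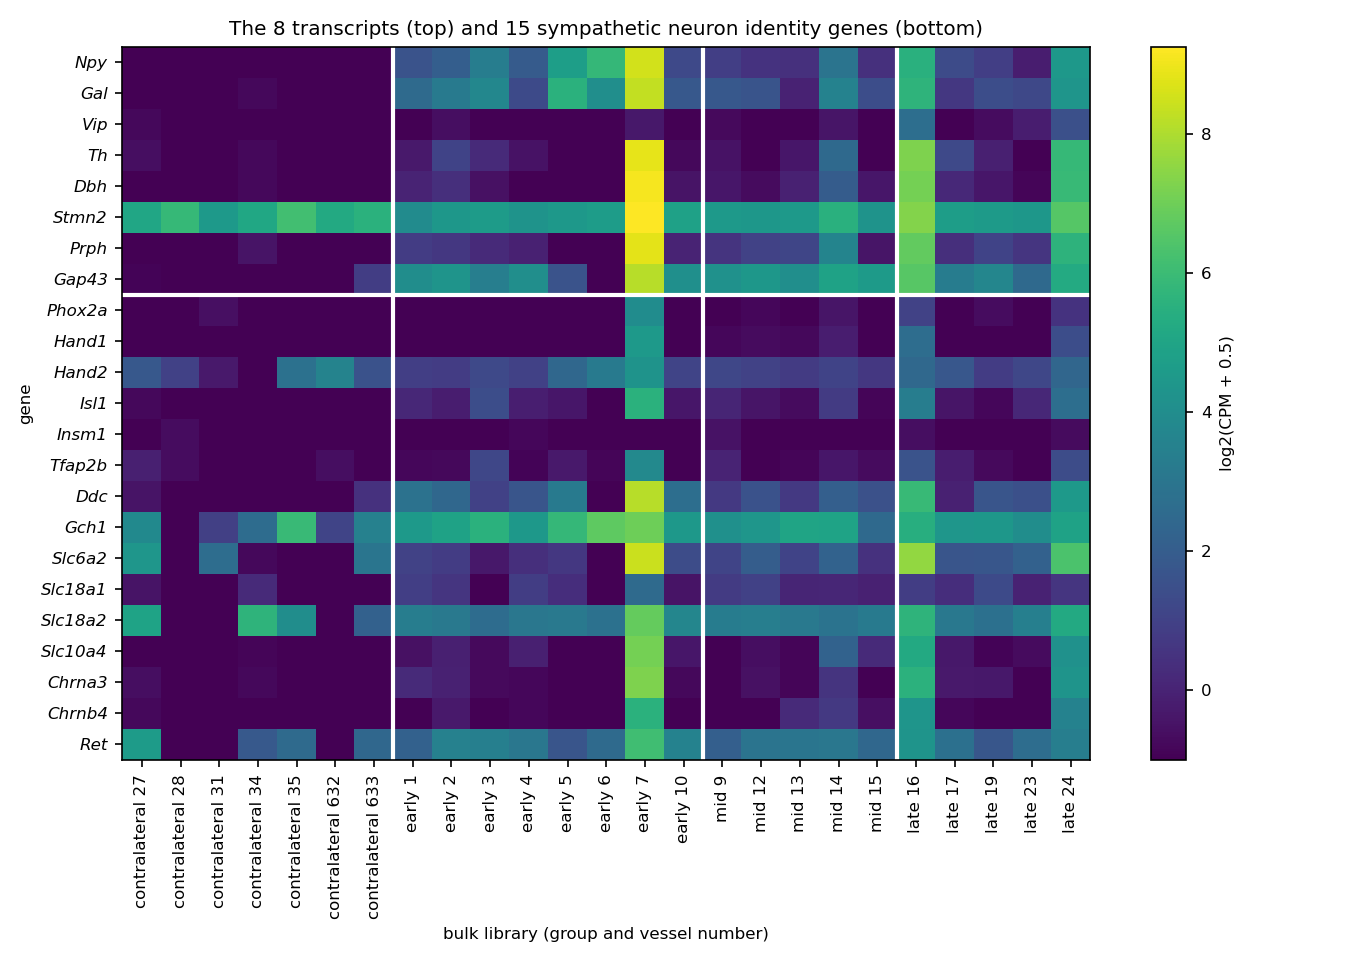
Levels of the 8 genes and 15 genes of sympathetic neuron identity in all 25 bulk libraries, as log2(CPM + 0.5), with libraries in columns by group. Early AVF 7, late AVF 16, and late AVF 24 were the 3 highest columns in 9 of the 15 lower rows, while *Gch1*, *Slc18a2*, and *Ret* were present in every AVF.

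Genes whose levels were most like the 8 were sought over all genes. Over the 8 early AVFs the mean standardized log2 level of the 8 had its highest Pearson coefficients, 0.996 to 0.974 among 18874 genes, with 15 genes that included *Chia1*, *Dcpp1*, *Cplx1*, *Zwint*, *Chrna3*, *Slc29a4*, *Map7d2*, *Cers4*, *Slc10a4*, *Gdap1*, *Pcsk1n*, *Rtn1*, *Prune2*, and *Syt1*. These coefficients share early AVF 7 as the extreme point and are a description. Over all 25 libraries and 12673 genes they were *Cplx1*, *Gdap1*, *Sult4a1*, *Rab3c*, *Slc10a4*, *Syt1*, *Elavl2*, *Chrna3*, *Pirt*, *Nrsn1*, *Snap25*, *Snap91*, *Htr3a*, *Gng3*, and *Rit2*, at 0.977 to 0.954. Of these 15, 7 were on the identity or pan-neuronal list. *Chia1* and *Dcpp1* parted from the rest. They had 395 and 452 CPM in early AVF 7 and 216 and 417 in late AVF 16, but 0.0577 and 0 in late AVF 24.

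Genes of other neuron types, glia, and neighbouring tissue were read beside them. Of 11 measured sensory and vagal genes 1 was tested and none called, and the sensory transcription factor *Prdm12* had no count in any library. Summed over the list the level was nevertheless 132 CPM in early AVF 7, 65.3 in late AVF 16, and 25.7 in late AVF 24, against an early median of 3.39, and 2 of the 11 had the same 3 highest libraries as *Dbh*. *Scn9a*, a sodium channel of sensory and sympathetic neurons, and *Avil* made up most of this, with *Avil* at 77.3 CPM and *Scn9a* at 52.6 in early AVF 7. Of 5 cholinergic genes, only *Ache* was tested, and it was called higher in early and late AVFs. *Chat*, which makes acetylcholine, had at most a trace, with a mean of 0.000996 CPM over the 25 libraries. Summed over the 5, the level was 111 CPM in early AVF 7, 47.4 in late AVF 16, and 21.5 in late AVF 24. The early median was 3.99, and 2 of the 5 had the same 3 highest libraries as *Dbh*. Of 4 paraganglion genes, *Kcnk3* was called lower in early and mid AVFs, and *Pnmt*, the enzyme of adrenaline synthesis, had no count in early AVF 7. Of 12 nerve injury genes 9 were tested and *Basp1*, a growth-cone protein, was called higher in early AVFs (log2 difference 3.56), while *Ecel1* and *Adcyap1* had the same 3 highest libraries as *Dbh*.

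Of 19 genes of Schwann and satellite glia, 16 were tested. In early AVFs *Mag*, *Gfap*, and *Ngfr* were called higher and *Scn7a* and *S100b* lower, and *Mag* and *Gfap* were higher in mid and late AVFs. *Gfap* reached 48.0 CPM and *Ngfr* 68.4 in the highest early AVF. The summed level of 6 Schwann markers was highest in early AVF 7 among early AVFs, 499 CPM against a median of 135. Early AVF 7 was also the lowest early AVF in fibroblast markers (3314 CPM against a median of 22835) and in mono/macro markers (9678 against 20580). The summed level of 6 neuron markers was 1940 CPM there, 621 in late AVF 16, and 276 in late AVF 24, against a median of 51.3 over early AVFs. In early AVFs 6 and 5 platelet markers were highest, at 12608 and 9297 CPM against a median of 1846, and neutrophil markers at 4423 and 3344 against 1434. The part of these differences in the levels of *Npy* and *Gal* was not tested.

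Tissue beside the vessel was measured through its own lists. All 11 skeletal muscle genes were tested, of which 9, 9, and 8 were called higher in early, mid, and late AVFs, while early AVF 7 was the lowest early AVF in them with a sum of 8.99 CPM. Of 9 thyroid genes 1 was tested and none called. Of 4 parathyroid genes 3 were tested and *Chga*, which the pan-neuronal list also holds, was called higher in early AVFs. Of 7 adipocyte genes, *Ucp1* was called higher and *Retn* lower in early AVFs, and *Fabp4* and *Retn* lower in mid and late AVFs. None of these lists had a gene with the same 3 highest libraries as *Dbh*. Over the 15 lists together 98 genes were tested, of which 29 were called higher and 10 lower in early AVFs, 12 and 8 in mid, and 15 and 5 in late AVFs. Without early AVF 7, 82 were tested, of which 16 were called higher and 14 lower in early AVFs.

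Receptors of the transmitters were read from the same libraries. Of 19 receptors for neuropeptide Y, galanin, vasoactive intestinal peptide, and catecholamines, 6 were tested and 1 was called. *Npy1r*, the Y1 receptor of vascular smooth muscle, was called lower at all time points, by −3.61 (SE 0.41) on the log2 scale in early AVFs (adjusted p = 3.7e-07), −2.59 (SE 0.48) in mid, and −2.37 (SE 0.47) in late. It had 25.9 to 315 CPM in contralateral veins (median 100.8), 5.09 to 18.2 in early (median 12.0), 13.9 to 40.4 in mid (23.6), and 19.95 to 33.9 in late AVFs (28.2). The early range lay below the contralateral range, and the mid and late ranges overlapped it. The share of all genes tested whose early range lay below in this way was not counted. Without early AVF 7 and late AVFs 16 and 24 it was −3.72 in early and −2.52 in mid AVFs, both called, and in late AVFs it was then not called. The summed level of 6 smooth muscle markers moved with it, with contralateral veins at a median of 10706 CPM and early, mid, and late AVFs at 1701, 2076, and 2539, and its part in this was not tested.

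Of 6 genes that process peptides 4 were tested and 2 were called. Of the 6, 3 had the same 3 highest libraries as *Dbh*. *Cpe*, carboxypeptidase E, was called lower in early, mid, and late AVFs, and *Pam*, which amidates the end of neuropeptide Y and galanin, in early and mid AVFs. The median level of *Cpe* was 1988 CPM in contralateral and 144 in early vessels. Of 14 other neuropeptides 2 were tested and called lower in early AVFs, *Penk* (log2 difference −2.29) and *Nmb* (−2.45), the latter at mid and late time points as well. Of 12 neurotrophic ligands 5 were tested. *Ntf3*, neurotrophin-3, a growth factor of sympathetic neurons, was called lower in early (−3.58) and mid (−2.77) AVFs.

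The time points of the AVF were compared with one another, and late against mid was tested. Neither group was part of early AVFs against contralateral veins, but the genes were chosen with earlier results of these data known. *Th*, *Dbh*, and *Prph* also passed the filter through the libraries in which they were high. The test therefore supports nothing about them beyond these vessels. None of the 12673 genes passed the threshold by edgeR's quasi-likelihood test between late and mid AVFs, and DESeq2 called 1. By edgeR's test 39 had an unadjusted p under 0.05, fewer than that limit marks by chance. *Dbh* was 5.43 (SE 2.46) higher in late AVFs on the log2 scale, *Th* 5.22 (SE 2.51), *Prph* 3.31 (SE 2.05), *Npy* 2.67 (SE 1.47), *Gal* 1.94 (SE 1.24), *Stmn2* 1.32 (SE 0.88), and *Gap43* 0.60 (SE 1.38). The adjusted p of each was 1.00 by edgeR's test. These differences rested on late AVFs 16 and 24. Without them and early AVF 7 they were −0.83 for *Npy*, −1.21 for *Gal*, −0.17 for *Stmn2*, and −1.25 for *Gap43*, of the opposite sign, and *Th*, *Dbh*, and *Prph* did not pass the filter. Without mid AVF 14 as well, mean *Dbh* was 0.316 CPM in late and 0.285 in mid AVFs, and mean *Gap43* 9.08 and 19.6. None of the differences between late and mid AVFs passed the threshold, which does not show that mid and late AVFs were alike. Mid AVFs had 1 gene higher and none lower than early AVFs (0.00789%), and late AVFs had 92 higher (0.726%) and 289 lower (2.28%), none of them in the lists. Against all contralateral veins, *Npy* and *Gal* lay higher in every early AVF (4.46% of genes tested did), and *Npy*, *Gal*, *Dbh*, *Prph*, and *Gap43* in every mid AVF (7.32%). In late AVFs *Npy*, *Gal*, *Prph*, and *Gap43* did (6.25%).

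Among the single-cell libraries, barcodes rich in *Dbh* were seen in the contralateral pool. Of its 11563 barcodes, 4 had 10 or more *Dbh* UMIs. In the early library 0 of 7074 barcodes had one, which allows a share of up to 0.0424%, and in the late library 0 of 7801, which allows up to 0.0385%. The 3 libraries shared 14 to 19 barcode sequences in pairs. A single library a condition allows no test, and the vessels of a pool cannot be told apart. All 4 barcodes had more than 6000 genes, the upper limit for cells kept below, and 34843 to 165397 UMIs against a median of 2751 over kept contralateral cells. The share of mitochondrial UMIs was 2.15 to 10.1%.

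The first pair had similar counts. They had 3766 and 3552 UMIs of *Npy*, 251 and 239 of *Th*, 417 and 332 of *Dbh*, 613 and 551 of *Stmn2*, 351 and 237 of *Prph*, 263 and 236 of *Gap43*, but only 78 and 91 of *Gal*. The third barcode had 212 UMIs of *Dbh* and 365 of *Stmn2* with 54 of *Npy* and 38 of *Gal*. The fourth was another kind, with 65 UMIs of *Vip* and none of *Npy*, *Gal*, or *Th*, beside 25 of *Dbh*, 49 of the choline transporter *Slc5a7*, and 18 of the vesicular acetylcholine transporter *Slc18a3*. *Slc6a2*, the noradrenaline transporter, had 445, 418, and 271 UMIs in the first 3 and 5 in the fourth. Of the 17 identity genes 15, 16, 15, and 15 had a UMI in the 4 barcodes, all 28 pan-neuronal genes did in each, and 3 or 4 of 11 sensory genes. The 4 barcodes held 98.2% of the *Npy* UMIs of the contralateral library (7372 of 7506), 97.7% of *Dbh* (986 of 1009), 95.7% of *Th*, 95.4% of *Prph*, 92.9% of *Vip*, 81.8% of *Gal*, 80.4% of *Gap43*, and 74.4% of *Stmn2*. In the vessels sequenced in bulk the contralateral group held no *Npy* count.

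**Figure D4:**
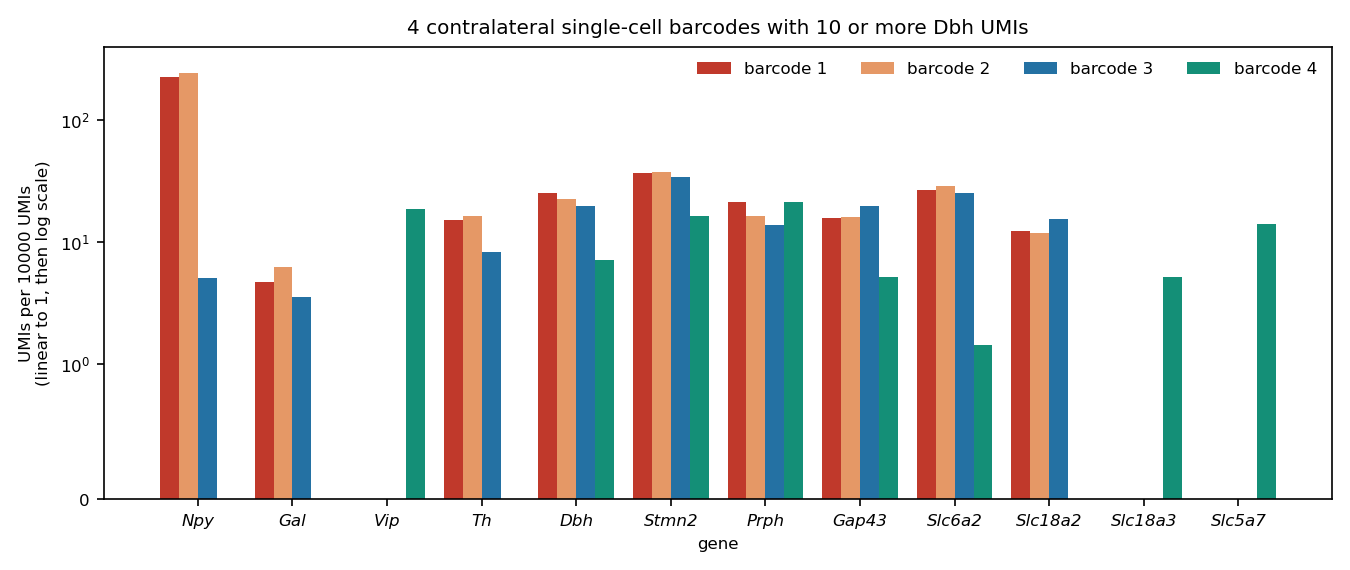
UMIs per 10000 UMIs of 12 genes in the 4 contralateral barcodes with at least 10 *Dbh* UMIs, on a symmetric log axis that is linear near 0. Barcodes 1 and 2 were led by *Npy* (3766 and 3552 UMIs), barcode 3 by *Stmn2* and *Slc6a2*, and barcode 4 by *Vip* and *Prph* with none of *Npy* or *Th*.

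In other cells, *Npy* was rare and had 2 UMIs at most in any of the 131 contralateral barcodes outside those 4. After a filter on barcodes (200 to 6000 genes and at most 10% mitochondrial UMIs), 6319 contralateral, 4753 early, and 5821 late cells were clustered and clusters were named from marker lists. In the contralateral library, 1.42% of mono/macro-like (11 of 773), 1.78% of fibroblast-like (33 of 1850), and 1.90% of T-like cells (12 of 633) had a *Npy* UMI. The share was thus low and alike in unrelated cells, and whether these UMIs were background was not tested. In the early library the shares differed between classes. *Npy* UMIs were found in 68 of 2025 mono/macro-like cells (3.36%, exact binomial 95% interval 2.62 to 4.24%) and 0 of 168 T-like cells, which allows a share of cells with a UMI of up to 1.79%. Median depths were 13032 and 5620 UMIs in these classes, and fibroblast-like cells, at 31768, had a share of 0.718% (3 of 418). The early mono/macro-like cells came mostly from cluster 0 (67 of 1544 cells with a *Npy* UMI) and cluster 6 (1 of 445), and those of the contralateral library mostly from cluster 9 (9 of 710), so that different clusters are set side by side. In all, the early mono/macro-like cells held 307 UMIs, 91.9% of those in kept early cells, and a single cell held 70. Among all early barcodes, 12 with 10 or more *Npy* UMIs held 276 of 473 (58.4%). In the late library 22 of 1614 mono/macro-like cells (1.36%) had 87 UMIs. No *Dbh* UMI was found in these libraries, and *Th* had 2 UMIs in the early and 1 in the late library.

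Outside the 4 barcodes, most *Gal* UMIs lay in few barcodes. In the late library 8 barcodes held 257 of its 416 UMIs (61.8%), and in the early library 8 held 240 of 382 (62.8%). With no upper limit on genes a cell, a fibroblast-like cluster held 264 of the early UMIs and an endothelial-like cluster 231 of the late ones (12 of 103 cells). *Npy* and *Gal* shared a barcode in 1 contralateral, 1 early, and 2 late barcodes, of 131, 112, and 54 with *Npy*, outside the 4 neuronal barcodes.

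*Stmn2* and *Gap43* had other cellular sources. *Stmn2* UMIs were found in 178 of 815 endothelial-like contralateral cells (21.8%, interval 19.0 to 24.8%), which held 90.3% of its UMIs in kept cells, and in 6 of 1850 fibroblast-like cells (0.324%). In early and late libraries 27 of 66 (40.9%, 29.0 to 53.7%) and 20 of 73 (27.4%, 17.6 to 39.1%) endothelial-like cells had one. The median depths of these cells were 2232, 9066, and 4564 UMIs, below those of fibroblast-like cells of the same library, in which the share was 0.324, 0.957, and 0.910%. *Gap43* was found in fibroblast-like cells, in 48 of 1850 (2.59%) contralateral, 101 of 418 (24.2%, 20.1 to 28.6%) early, and 238 of 1978 (12.0%, 10.6 to 13.5%) late cells, taken mostly from clusters 2, 13, and 1, at median depths of 4408, 31768, and 25101 UMIs. It was also found in 14 of 24 (58.3%, 36.6 to 77.9%) late and 8 of 395 (2.03%) contralateral Schwann-like cells, and in 0.259 to 0.372% of mono/macro-like cells. Kept cells had a median of 2751, 8951, and 15425 UMIs in the contralateral, early, and late library. The shares of *Stmn2* in endothelial-like and of *Gap43* in fibroblast-like cells were highest in the early library. The median depth of both classes was highest there as well, and its part in these shares was not tested. Kept cells of at least 1000 UMIs were also thinned to 1000, which left out 1172 contralateral, 433 early, and 389 late cells that were shallower. In the cells thinned, *Gap43* was in 0.447, 0.301, and 0.589%, *Stmn2* in 1.42, 0.440, and 0.184%, *Npy* in 0.311, 0.278, and 0.147%, and *Gal* in 0.175, 0.162, and 0.313%.

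**Figure D5:**
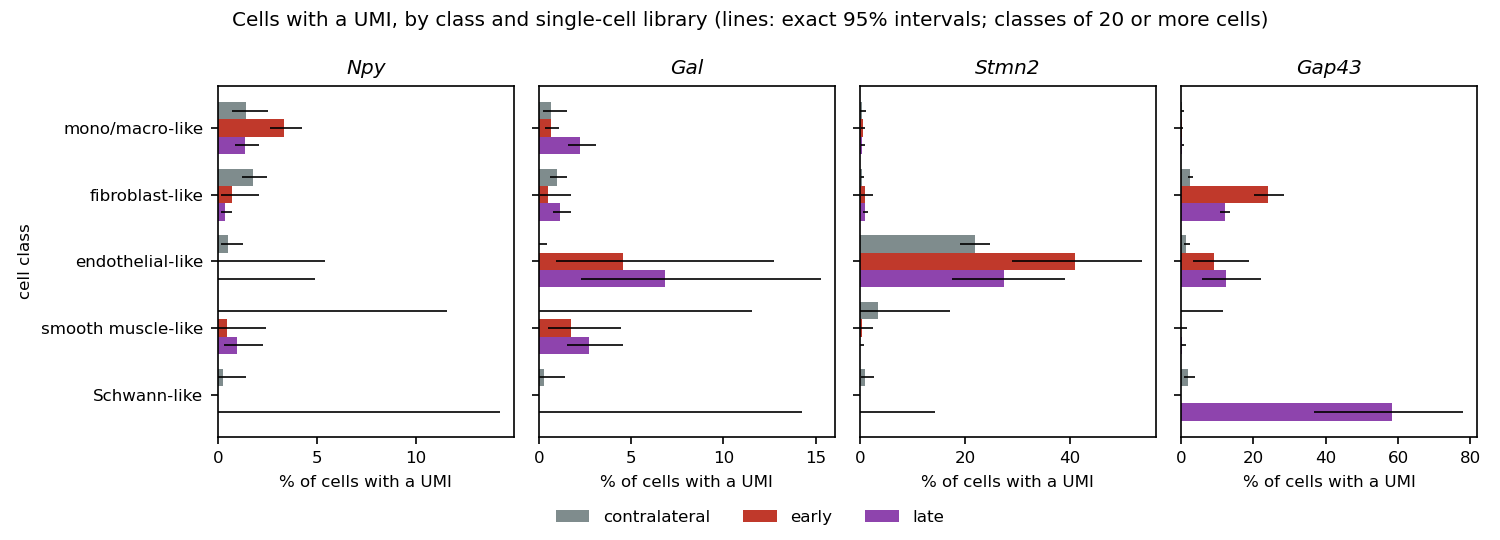
Percent of kept cells with at least 1 UMI of *Npy*, *Gal*, *Stmn2*, and *Gap43* in 5 classes of cells and 3 libraries, 1 a condition, with exact binomial 95% intervals that cover counting error only and classes of under 20 cells left out. *Stmn2* was found in endothelial-like cells of all 3 libraries, and *Gap43* in fibroblast-like cells most often in the early one (24.2%).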

How the data were processed

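Bulk RNA sequencing covered 25 vessels and single-cell sequencing 3 pools. The authors deposited whole-number read counts per gene for 56980 genes, not normalized, and UMI counts per gene and barcode for 32285 genes made with Cell Ranger, which the file headers give as version 6.0.2. The submitters' processing notes name Cell Ranger and STAR without roles, and the counting step is not given in the sources used here. Groups came from the deposited labels.

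Bulk counts were fitted with edgeR 4.0.16 (R 4.3.3), TMM scaling, and a quasi-likelihood F test over all 25 libraries, for genes whose DESeq2-normalized count averaged 100 or more. A call needed a Benjamini–Hochberg adjusted p under 0.01 and an absolute log2 difference of at least 1. DESeq2 1.42.0, other filters, a term for sex, and left-out libraries were alternatives. The test was checked on simulated data. P-values measure the spread between vessels.

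Cells with 200 to 6000 genes and at most 10% mitochondrial UMIs were clustered with scanpy 1.11.5 and leidenalg 0.10.2. Clusters were named from fixed markers by a rule adjusted after the clusters had been seen. No doublet caller was run. Intervals cover counting error only.

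The 8 genes and the lists were chosen with earlier results of these data known. Named genes were the 8, list members called or otherwise the 4 most abundant, and the 15 genes of highest likeness, some of which are not reported here. Figures were drawn with matplotlib 3.10.9.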

Additional observations from a re-analysis of the deposited data

Results flagged for a closer look

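A gap test (Dixon, 95%) was applied to the CPM of each gene in each group of 5 to 8 libraries, 31 sets in all, and 18 held a library beyond its critical value. Chance marks about 1 in 20 sets of normally spread values, which CPM here are not, and the sets share libraries. The genes had been chosen with these values known, so the marks describe them and support nothing. In the early group the library was early AVF 7 for 7 genes, *Npy* (375 CPM), *Gal* (319), *Th* (471), *Dbh* (556), *Stmn2* (611), *Prph* (460), and *Gap43* (282). In the mid group it was mid AVF 14 for 6 genes, *Npy* (7.11 CPM), *Gal* (11.3), *Th* (5.25), *Dbh* (3.41), *Stmn2* (45.4), and *Prph* (11.9). In the contralateral group the values rested on few counts. Vein 34 stood apart for *Gal* (0.0899 CPM), *Dbh* (0.0899), and *Prph* (0.225), with 2, 2, and 5 counts, vein 27 for *Vip* (0.0783 CPM, 2 counts), each with the other 6 veins at 0, and vein 633 for *Gap43* (1.30 CPM, 38 counts). No late library passed, and late AVFs 16 and 24 were high together. The cause was not tested.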

How the results depend on the processing

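No paired analysis was possible because vessel numbers are unique to each vessel and each single-cell condition has 1 library. Of the fixed lists, 39 genes were called in early, 20 in mid, and also 20 in late AVFs against contralateral veins, and 0 between time points. With DESeq2 they were 33 in mid, 38 in late, 1 in mid against early, and 2 in late against early. With filterByExpr they were 32 and 44 (mid, late), with no filter 31 and 42, and in female mice alone 10, 5, and 5. Added after seeing the data, leaving out early 7, late 16, and late 24 gave 8 in late AVFs, and also leaving out mid 14 gave 21, 10, and 6. Leaving out early 7, or early 5 and 6, gave 1 in late against early.

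Over all genes 1599, 767, and 676 were called, with 1 in mid against early, 381 in late against early, and 0 in late against mid. DESeq2 called 2440, 1418, 1294, 474, 753, and 1. FilterByExpr gave 3803, 2823, and 2696, no filter 3938, 2728, and 2567 (late against early 208), and female mice alone 327, 192, and 173 (late against early 0). DESeq2's size factors in edgeR, filterByExpr, a term for sex, female mice, and each set of left-out libraries gave 0 in mid against early. Late against early had 7 calls without the same 3 libraries, when late AVFs had 244, and 5 without those and mid 14, when mid and late had 385 and 204, and 105 without early 5 and 6. Leaving out single libraries gave 30 to 40, 13 to 21, and 13 to 25 list genes, 0 to 1 in late against early, and 0 to 0 in the others. Over all genes it gave 1370 to 1825 in early, 530 to 955 in mid, 432 to 889 in late, 0 to 305 in mid against early, 32 to 549 in late against early, and 0 to 0 in late against mid. Late against early fell to 32, 34, 40, 41, and 151 without late 16, 17, 19, 24, and 23, and to 186, 156, and 206 without early 3, 5, and 6. Mid against early rose to 224, 177, 236, and 305 without early 1, 2, 4, and 10, and was 0 without most other libraries. Late AVFs had 432, 435, and 446 calls without late 16, 17, and 24. List genes fell to 13 without mid 12 (mid), and without late 16 or 23 (late). The cause was not tested.

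Positive pairs of the 8 genes over early AVFs were 28 of 28, 14 to 28 when single libraries were left out, and 9 without early 7 and 2. Genes highest in early 7 were 0 to 8 in the same way. The share of early cells with *Npy* was 1.66%, and 0.278% at 1000 UMIs a cell, with 433 shallower cells left out. *Stmn2* in early AVFs changed sign in each setting without early 7.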

Other observations

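*Chia1*, the acidic chitinase, and *Dcpp1*, a protein of salivary glands, were the 2 genes whose levels in early AVFs were most like those of the neuronal genes. They reached 72.2 and 23.5 CPM in the highest contralateral vein.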
